A study of Rattus norvegicus with 9 samples.

Results

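Transcripts of 9 complement genes, C1r, C1s, C2, C3, C6, C7, Cfb, Masp1 and Cd55, were followed in the rat knee without surgery, after sham surgery and after partial meniscectomy (pMx). They were found by gene symbol among the 17602 genes of the deposited expression table, and all 9 were found, each in 1 row. They cover the classical pathway (C1r, C1s, C2), the lectin pathway (Masp1), the alternative pathway and its shared centre (Cfb, C3), the terminal pathway (C6, C7) and a membrane regulator (Cd55). The rule names genes by function and sets no limit on a measured value, but it was written with earlier results of these data known.

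Complement is a cascade of plasma and tissue proteins that marks microbes, immune complexes and dying cells. The classical pathway starts with C1q, C1r and C1s on antibody or on dying cells, the lectin pathway with sugar-binding proteins and their proteases, and the alternative pathway amplifies C3b once it has been laid down. All routes meet at the cleavage of C3, after which C5 to C9 can build a pore in a membrane, and regulators such as Cd55 on host cells break up the enzymes that cleave C3. The liver makes most of the plasma proteins, while fibroblasts and macrophages of the synovium make several of them locally.

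All rats were wild-type male Lewis rats aged 10 to 12 weeks. The Intact group was synovium, the lining tissue of the joint, dissected around the medial meniscus in knees without an operation. The Sham group was synovium of that site, taken 1 week after the joint capsule had been opened and closed with the meniscus left in place. The pMx group was the regenerating tissue that had formed 1 week after the meniscotibial ligament was cut and the anterior part of the medial meniscus taken out in both knees, dissected free of the synovium around it. A difference between pMx and Sham is therefore a difference in operation and in the tissue dissected, and these cannot be told apart. The RNA integrity numbers listed with the study did not overlap between the groups, lowest in Intact and highest in pMx, so RNA quality and group cannot be told apart in any of the comparisons either. Each group had 3 libraries named as biological replicates. The sources used here do not say whether a library came from 1 animal or from several, so the p-values measure the spread between these libraries.

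The values were TPM, a transcript level corrected for transcript length that sums to 1000000 in each library. Levels of different genes were set side by side on this scale. TPM keeps no read number, the depth is unknown, and each SD given is the spread over 3 libraries. Between 15644 and 16125 genes were above 0 TPM in a library, and no 2 libraries were identical. Replicate 3 of the Intact group stood apart: 12 skeletal muscle markers made up 48359 TPM there (4.84% of the library), against 72.8 to 3446 TPM in the other 8 libraries. Differences were tested with limma on log2(TPM + 1) over 16512 genes, those with a TPM above 0 in 3 or more libraries, with Benjamini-Hochberg adjustment over those genes. All 9 libraries were fitted together with 1 spread per gene. The libraries of every group, the muscle-rich one included, therefore enter each SE, interval and p-value. A gene was called a differentially expressed gene (DEG) at an adjusted p below 0.05 with an absolute log2 fold change above 1, and fold changes on this scale understate the change of genes near 1 TPM.

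Levels of the 9 genes ran from 1.23 TPM (Cfb in a pMx library) to 487.80 TPM (C1s in a Sham library). In the Sham group C1s was the highest (466 ± 21.7 TPM, mean ± SD, n = 3 here and below), followed by C1r (392 ± 23.6 TPM), C2 (346 ± 31.0 TPM), Cd55 (177 ± 37.2 TPM), C6 (144 ± 34.5 TPM), C7 (124 ± 11.3 TPM), Cfb (24.5 ± 4.29 TPM), Masp1 (6.51 ± 2.53 TPM) and C3 (6.30 ± 1.46 TPM). The classical trio C1r, C1s and C2 held the 3 highest places in each library except replicate 3 of the Intact group, in which Cd55 (200.06 TPM) stood above C2 (180.20 TPM). Among neighbours in this order, the Sham ranges of C1r and C2, of Cd55 and C6, of C6 and C7, and of Masp1 and C3 overlapped, so their order was within the spread. In the pMx group Masp1 stood in seventh place in all 3 libraries, above Cfb and C3, which shared the lowest places. The summed level of the 9 genes was 1136 to 1588 TPM in Intact, 1529 to 1785 TPM in Sham and 848 to 1049 TPM in pMx.

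**Figure D1:**
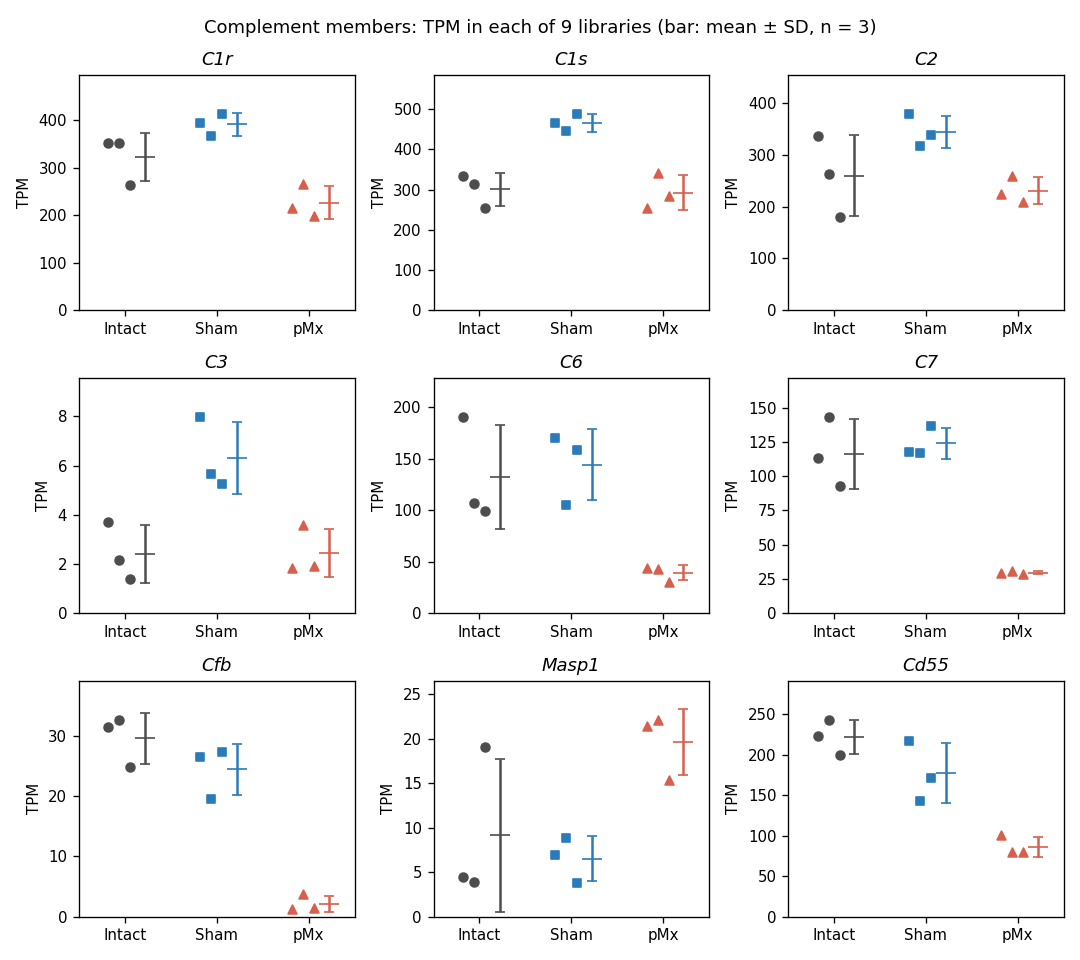
TPM of each of the 9 complement genes, 1 panel per gene with its own linear axis from 0, 1 point per library of the Intact, Sham and pMx groups, and a bar at the mean ± SD of the 3 libraries. All pMx points lie below all Sham points for each gene except Masp1, for which they lie above them. C1r, C1s and C2 stay between 180.20 and 487.80 TPM in all 9 libraries.

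Promoter sequence was held for 5 of the 9 genes (C1r, C3, C6, Masp1 and Cd55) in a RefSeq table of the rat assembly GRCr8. The 250 bases before the annotated start are shown for 4 of them. C3 and Cd55 are shown because they hold a match to a motif that was searched, and C6 and Masp1 because they differed between pMx and Sham in opposite directions and hold none. All are written 5′ to 3′ on the strand of the gene, with matches in capitals. C3 lies on the minus strand (chr9:2201340-2201589), C6 on the plus strand (chr2:55573383-55573632), Masp1 on the plus strand (chr11:90839472-90839721) and Cd55 on the minus strand (chr13:44438102-44438351).
C3: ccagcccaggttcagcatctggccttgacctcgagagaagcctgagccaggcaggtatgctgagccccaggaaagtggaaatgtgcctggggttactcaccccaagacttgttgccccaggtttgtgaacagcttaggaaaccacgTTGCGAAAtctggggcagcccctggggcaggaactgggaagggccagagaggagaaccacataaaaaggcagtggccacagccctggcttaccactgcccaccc
C6: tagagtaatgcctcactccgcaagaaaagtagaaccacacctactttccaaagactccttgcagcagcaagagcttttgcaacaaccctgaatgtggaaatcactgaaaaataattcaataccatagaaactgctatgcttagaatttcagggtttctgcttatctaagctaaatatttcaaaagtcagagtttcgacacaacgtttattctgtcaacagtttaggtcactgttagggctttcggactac
Masp1: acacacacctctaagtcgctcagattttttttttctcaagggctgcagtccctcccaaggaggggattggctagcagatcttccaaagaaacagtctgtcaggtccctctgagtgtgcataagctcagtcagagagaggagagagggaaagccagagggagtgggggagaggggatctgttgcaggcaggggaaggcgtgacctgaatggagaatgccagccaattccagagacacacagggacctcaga
Cd55: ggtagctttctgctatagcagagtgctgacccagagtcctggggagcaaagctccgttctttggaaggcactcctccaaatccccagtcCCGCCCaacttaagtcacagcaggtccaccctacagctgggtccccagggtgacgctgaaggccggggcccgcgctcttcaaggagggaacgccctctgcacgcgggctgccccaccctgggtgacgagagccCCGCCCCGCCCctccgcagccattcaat
The capitals in C3 are a C/EBP motif, 104 to 97 bases before the start, and those in Cd55 are 3 GC boxes on the opposite strand, at 161 to 156, 28 to 23 and 23 to 18 bases before it, of which the last pair share 1 base. C/EBP factors are known regulators of C3 in the acute phase response. Searched on both strands were the C/EBP motif TTNCGNAA, present in 2.19% of 27457 rat promoter windows of this length, the interferon element TTCNNNGAA (7.52%), the NF-kB consensus site (0.317%), the AP-1 site TGANTCA (6.36%), TATAAA (13.1%) and the GC box GGGCGG (32.4%). C1r, C6 and Masp1 held none of these letters in the window. A match is a description of the letters, and no binding was measured.

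Against Sham, the regenerating tissue held less transcript of most complement genes and more of 1. Cfb, C7, C6, C3 and Cd55 were lower DEGs, with mean levels in Sham 11.7, 4.18, 3.67, 2.56 and 2.05 times those in pMx, and Masp1 was a higher DEG at 3.01 times its Sham mean. Of all genes tested, 4.85% were lower DEGs and 3.36% higher DEGs in this comparison, 8.21% in all. C1r and C1s had an adjusted p below 0.05 with a smaller fold, and C2 did not pass. By the adjusted p alone, 7 members were lower and 1 was higher, against 18.9% and 17.7% of all genes tested. The groups did not overlap for any of the 9 genes, with 8 lower and 1 higher in pMx, against 29.0% and 27.0% of all genes in those directions. The median log2 fold change was -1.02 over the 9 genes and -0.01 over all genes tested. In bulk tissue, fewer cells of a type and less RNA per cell cannot be told apart. The count of DEGs fell from 6 to 3 without replicate 1 of the Sham group and also without replicate 3 of the pMx group, and was 6 without the muscle-rich Intact library.

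After the Sham operation 1 of these genes was called. C3 was a higher DEG in Sham than in Intact, and C1s was higher with a fold below the threshold. No member was a lower DEG, and at an unadjusted p below 0.05 in limma, 2 were higher and 0 were lower, against 28.7% of all genes tested in either direction. Higher DEGs made up 1.42% of all genes tested and lower DEGs 0.533%, 1.96% in all, and 6.73% were higher by the adjusted p alone. C1r, C1s and C3 lay above the Intact group without overlap, as 14.2% of all genes did. The count of 1 DEG became 0 without the muscle-rich Intact library, as for 7 of the 9 libraries left out in turn, with C3 as the gene that lost its call. In pMx versus Intact, C6, C7, Cfb and Cd55 were lower DEGs and none was higher, against 7.89% and 6.40% of all genes tested, 14.3% in all. The adjusted p alone made C1r the fifth lower member, against 27.1% of all genes, and 4 members lay below Intact without overlap, against 30.6%. At an unadjusted p below 0.05 that comparison held 1 higher and 5 lower members, against 26.1% and 30.3% of all genes tested, and without the muscle-rich Intact library 5 members were DEGs, Masp1 being added. The 3 comparisons share libraries, so their fold changes are not independent of each other.

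**Figure D2:**
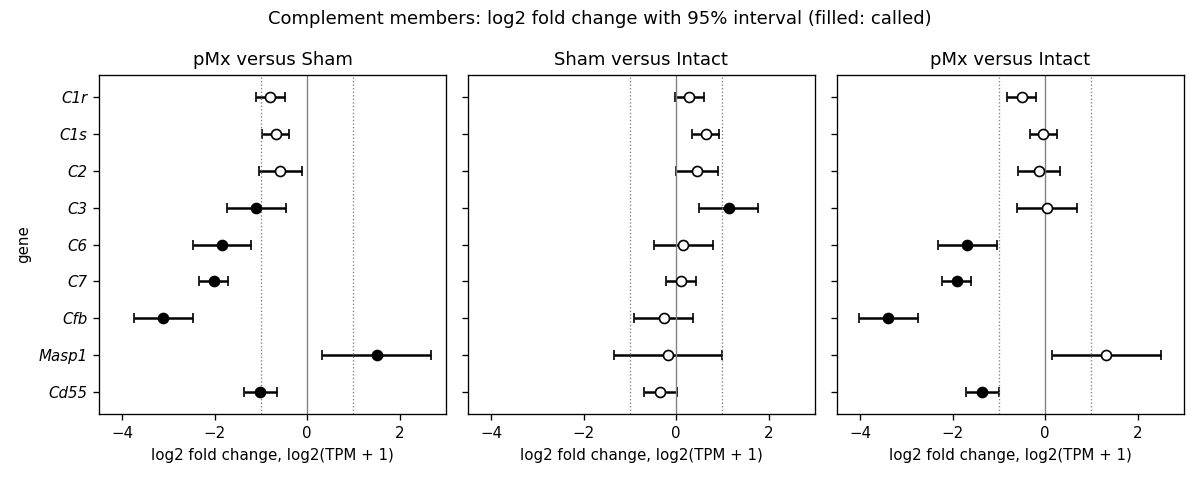
Log2 fold change of the 9 complement genes on the log2(TPM + 1) scale, with 95% confidence intervals from limma, for pMx versus Sham, Sham versus Intact and pMx versus Intact, with filled points for DEGs. In pMx versus Sham, Masp1 (1.501) is the one gene to the right of 0, and Cfb (-3.12), C7 (-2.02) and C6 (-1.84) lie farthest to the left.

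C1r and C1s are the paired proteases of the first complement component. C1r activates C1s, and C1s then cuts C4 and C2. C1s was measured at 332.70, 313.01 and 254.60 TPM in Intact, at 465.32, 444.49 and 487.80 TPM in Sham, and at 254.33, 339.94 and 283.33 TPM in pMx. All 3 Sham libraries lay above the other 6, and Intact and pMx overlapped. The mean level was 1.55 times as high in Sham as in Intact, with a log2 fold change of 0.64 (SE 0.13, limma adjusted p = 0.0173). In pMx versus Sham the log2 fold change was -0.68 (SE 0.13, limma adjusted p = 0.00345). Between Intact and pMx it was -0.04, with a 95% interval from -0.33 to 0.25 (limma adjusted p = 0.829).

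C1r was measured at 352.71, 352.18 and 263.67 TPM in Intact, at 394.43, 366.73 and 413.65 TPM in Sham, and at 214.86, 266.57 and 199.02 TPM in pMx. The pMx libraries lay below all Sham libraries and overlapped the Intact group through its replicate 3. Its log2 fold change reached -0.79 in pMx versus Sham (SE 0.14, limma adjusted p = 0.00259) and -0.51 in pMx versus Intact (SE 0.14, limma adjusted p = 0.0157), both smaller than the fold threshold. The value for Sham versus Intact was 0.29, with an interval from -0.03 to 0.61 (limma adjusted p = 0.216).

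C1r and C1s are neighbours on chromosome 4 in the RefSeq gene order, with 0 protein-coding genes between them, and their proportion within a library differed between groups. The ratio of C1r to C1s TPM was 1.06, 1.13 and 1.04 in the Intact libraries, 0.848, 0.825 and 0.848 in the Sham libraries and 0.845, 0.784 and 0.702 in the pMx libraries. C1r was the more abundant of the pair in every Intact library and C1s in every Sham and pMx library. The Sham and pMx ratios overlapped. With 3 libraries against 3, an exact permutation test cannot give a two-sided p below 0.1, so no test was made of this ratio.

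C2 supplies the protease part of the classical and lectin C3 convertase. It was measured at 336.81, 263.82 and 180.20 TPM in Intact, at 379.44, 318.53 and 338.62 TPM in Sham, and at 224.98, 259.52 and 208.29 TPM in pMx. The Intact libraries spread widely and overlapped both other groups, while pMx lay below Sham in every library. The log2 fold change of -0.58 in pMx versus Sham (95% interval from -1.04 to -0.12) missed the threshold at a limma adjusted p of 0.0524. It was 0.45 in Sham versus Intact (limma adjusted p = 0.185) and -0.13 in pMx versus Intact (limma adjusted p = 0.623).

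Masp1 encodes a serine protease that starts the lectin pathway together with its sugar-binding partners. The same gene also gives the product MASP-3, and gene-level TPM does not separate these products. Masp1 was measured at 4.43, 3.93 and 19.06 TPM in Intact, at 6.93, 8.81 and 3.80 TPM in Sham, and at 21.48, 22.08 and 15.33 TPM in pMx. Every pMx library lay above every Sham library, and replicate 3 of the Intact group lay inside the pMx range. On the log2 scale its difference was 1.501 in pMx versus Sham (SE 0.51, limma adjusted p = 0.0495) and 1.33 in pMx versus Intact (SE 0.51, limma adjusted p = 0.0593).

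The library with the most skeletal muscle transcript had the highest Masp1 in each group. Their summed level was 72.8, 227 and 48359 TPM in the Intact libraries, 1552, 3358 and 291 TPM in the Sham libraries and 2956, 3446 and 98.0 TPM in the pMx libraries. In Sham and pMx all 3 libraries stood in the same order for Masp1 and for the muscle markers, while replicates 1 and 2 of the Intact group stood in opposite orders. Of the 12 markers, 0 were DEGs in pMx versus Sham with limma, and 0 had an unadjusted p below 0.05. Their 95% intervals were wide, from -3.41 to 4.43 for Myh2 and from -6.56 to 5.87 for Myh4. This test could therefore not show whether muscle content differed between these groups. Where muscle transcript was low, Masp1 was 15.33 TPM in the pMx library with 98.0 TPM of muscle markers, 3.80 TPM in the Sham library with 291 TPM, and 4.43 and 3.93 TPM in the Intact libraries with 72.8 and 227 TPM. For pMx and Sham these are values of 1 library each. With a muscle score as a covariate, chosen after the data were seen, pMx versus Sham gave a log2 fold change of 1.52 (limma adjusted p = 0.000404) and 1.32 in pMx versus Intact (limma adjusted p = 0.000478). The call in pMx versus Sham was lost without any 1 of the 6 Sham and pMx libraries, with log2 fold changes from 1.21 without replicate 3 of the Sham group to 1.72 without its replicate 2, at limma adjusted p-values from 0.0589 to 0.159. That call was kept without any 1 of the Intact libraries, at a limma adjusted p down to 0.00235. The spread within Intact therefore also entered the adjusted p of 0.0495. Without replicate 3 of the Intact group, pMx versus Intact gave 1.98 (limma adjusted p = 0.000743). The cell source of the Masp1 transcript was not tested.

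Cfb is the alternative pathway counterpart of C2 and forms the convertase that amplifies C3b. It was measured at 31.49, 32.58 and 24.77 TPM in Intact, at 26.54, 19.52 and 27.30 TPM in Sham, and at 1.23, 3.69 and 1.35 TPM in pMx. Intact and Sham overlapped, and the highest pMx library was far below the lowest of the other 6. It differed by a log2 fold change of -3.12 in pMx versus Sham (SE 0.28, limma adjusted p = 0.000102) and -3.39 in pMx versus Intact (SE 0.28, limma adjusted p = 2.27e-05). Set against Intact, Sham gave -0.27, with an interval from -0.91 to 0.37 (limma adjusted p = 0.576).

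C2 and Cfb are adjacent genes on chromosome 20, with 0 protein-coding genes between them in the RefSeq order, and encode related proteases. The ratio of C2 to Cfb TPM was 10.7, 8.10 and 7.27 in the Intact libraries, 14.3, 16.3 and 12.4 in the Sham libraries, and 183, 70.3 and 154 in the pMx libraries. The 3 groups did not overlap in this ratio, which was highest in pMx, and it was not tested.

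C3 is the protein at which all pathways meet, and it was among the least abundant members. It was measured at 3.69, 2.16 and 1.39 TPM in Intact, at 7.96, 5.67 and 5.26 TPM in Sham, and at 1.84, 3.59 and 1.94 TPM in pMx. The Sham libraries lay above all others, and Intact and pMx overlapped. Its log2 fold change reached 1.13 in Sham versus Intact (SE 0.28, limma adjusted p = 0.0352) and -1.10 in pMx versus Sham (SE 0.28, limma adjusted p = 0.0157). Between Intact and pMx it was 0.04, with an interval from -0.60 to 0.68 (limma adjusted p = 0.929). The call in Sham versus Intact was lost for 7 of the 9 libraries left out in turn, with log2 fold changes from 0.90 without replicate 3 of the Intact group to 1.24 without replicate 3 of the Sham group, and limma adjusted p-values up to 0.113 without replicate 1 of the Sham group. The losses also came without replicate 2 of the Intact group, replicates 2 and 3 of the Sham group, and replicates 1 and 3 of the pMx group. The call in pMx versus Sham was lost without replicate 1 of the Sham group (-0.94, limma adjusted p = 0.0572), replicate 1 of the pMx group (-0.97, 0.0583) and replicate 3 of the pMx group (-0.997, 0.054).

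In TPM, C1r and C1s stood far above C3 in every library. The counting tool and annotation are not given in the sources used here, so the level of C3 against other genes is uncertain. The ratio of C1s to C3 TPM had a mean of 139 ± 46.7 in Intact, 76.5 ± 17.2 in Sham and 126 ± 27.7 in pMx. The ratio of C3 to Cfb was 0.0799 ± 0.0327 in Intact, 0.261 ± 0.0594 in Sham and 1.30 ± 0.286 in pMx, without overlap between groups. C3 was below Cfb in every Intact and Sham library, and above it in replicates 1 and 3 of the pMx group.

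C6 and C7 join C5b at the membrane and begin the assembly of the terminal pore. C6 was measured at 190.43, 107.40 and 99.25 TPM in Intact, at 170.04, 105.17 and 158.19 TPM in Sham, and at 44.05, 43.11 and 30.91 TPM in pMx. C7 was measured at 113.05, 142.96 and 92.71 TPM in Intact, at 117.65, 117.15 and 136.92 TPM in Sham, and at 29.62, 30.84 and 28.53 TPM in pMx. For both genes Intact and Sham overlapped, and all pMx libraries lay below all other libraries. The SD of C7 within pMx was 1.16 TPM, the smallest relative to its mean among the 9 genes in that group.

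The log2 fold change in pMx versus Sham was -1.84 for C6 (SE 0.28, limma adjusted p = 0.00117) and -2.02 for C7 (SE 0.14, limma adjusted p = 3.68e-05). The value for pMx versus Intact was -1.68 for C6 (limma adjusted p = 0.0011) and -1.91 for C7 (limma adjusted p = 1.31e-05). Set against Intact, Sham gave 0.16 for C6 (interval from -0.47 to 0.79, limma adjusted p = 0.758) and 0.11 for C7 (interval from -0.21 to 0.43, limma adjusted p = 0.663). The pair lie on chromosome 2 with 1 protein-coding gene, Mroh2b, between them in the RefSeq order. Their ratio of TPM overlapped between all groups, at 1.17 ± 0.474 in Intact, 1.17 ± 0.274 in Sham and 1.32 ± 0.212 in pMx.

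Cd55, also called decay-accelerating factor, is a membrane protein that takes apart C3 convertases on host cells. In synovium it is known as a marker of lining fibroblasts. It was measured at 223.15, 242.59 and 200.06 TPM in Intact, at 216.81, 143.19 and 171.21 TPM in Sham, and at 100.33, 79.46 and 79.22 TPM in pMx. The pMx libraries lay below all others, and Sham overlapped Intact in its replicate 1. On the log2 scale its difference was -1.02 in pMx versus Sham (SE 0.16, limma adjusted p = 0.00131) and -1.36 in pMx versus Intact (SE 0.16, limma adjusted p = 0.000148). Between Intact and Sham it was -0.34, with an interval from -0.70 to 0.02 (limma adjusted p = 0.194). The fold in pMx versus Sham lay close to the threshold and dropped under it without replicate 1 of the Sham group (-0.86) and without replicate 2 or 3 of the pMx group (-0.96 each), while the limma adjusted p stayed at or below 0.00706.

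The rest of the pathway was described from a list of 45 other complement genes, of which 40 were in the table and 37 were tested. In pMx versus Sham 11 were lower DEGs, 1 was a higher DEG and 25 were not called, with a median log2 fold change of -0.295. Of all genes tested, 4.85% were lower and 3.36% higher DEGs there, with a median of -0.01. In Sham versus Intact 1 was higher and 1 lower (median 0.15), against 1.42% and 0.533% of all genes tested (median -0.02). In pMx versus Intact 3 were higher and 11 lower (median -0.28), against 6.40% and 7.89% (median -0.03). The same shares of all genes apply to the counts by role and of marker lists below.

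**Figure D3:**
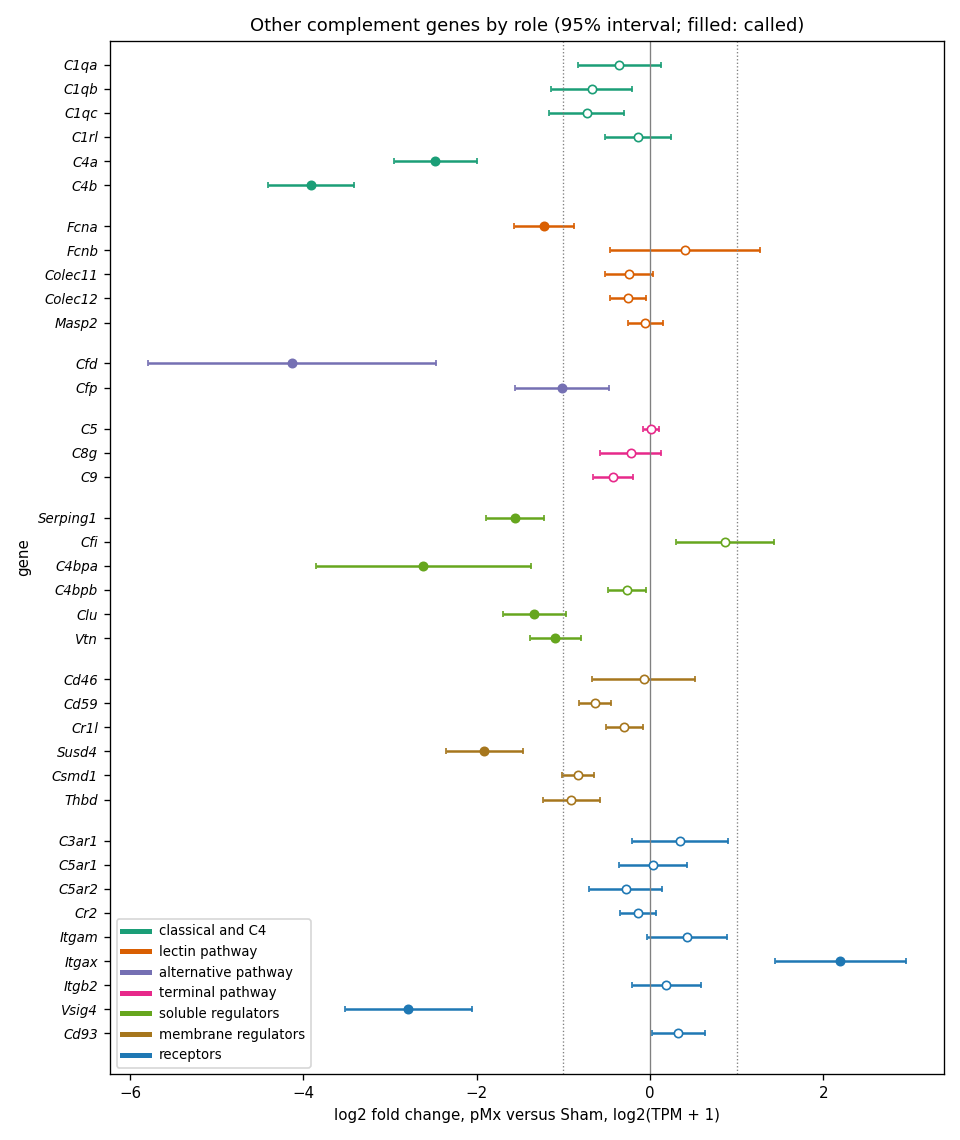
Log2 fold change in pMx versus Sham of the 37 other complement genes tested, on the log2(TPM + 1) scale with 95% confidence intervals from limma, coloured by role, with filled points for DEGs. Itgax (2.20) is the one higher DEG, and Cfd (-4.13), C4b (-3.91) and Vsig4 (-2.79) are the lowest of the 11 lower DEGs.

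Among the initiators of the classical pathway, the C1q chains C1qa, C1qb and C1qc, which macrophages produce, stayed abundant. C1qa had a mean of 469 ± 139 TPM in Intact, 659 ± 43.0 TPM in Sham and 522 ± 104 TPM in pMx, and its log2 fold change in pMx versus Sham was -0.35 (SE 0.21, limma adjusted p = 0.227). C1qb (-0.67, limma adjusted p = 0.0321) and C1qc (-0.73, limma adjusted p = 0.0164) were lower with a fold below the threshold. Both genes of C4, the substrate of C1s, were lower DEGs, 2 of the 6 genes tested in this group. C4b was 466.57, 388.36 and 254.92 TPM in Intact, 413.47, 357.07 and 432.01 TPM in Sham, and 26.43, 30.50 and 20.87 TPM in pMx, a log2 fold change of -3.91 in pMx versus Sham (SE 0.22, limma adjusted p = 1.95e-05). C4a fell by 2.48 on the log2 scale (limma adjusted p = 7.59e-05) in the same comparison. C4a and C4b are near-identical copies, and how reads were divided between them is not given in the sources used here, so their separate values are uncertain.

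In the lectin pathway 1 of 5 genes tested was a DEG in pMx versus Sham, Fcna, which encodes the sugar-binding ficolin-A. Its mean was 90.2 ± 4.17 TPM in Sham and 38.1 ± 3.09 TPM in pMx (log2 fold change -1.22, limma adjusted p = 0.000424). The lectin protease gene Masp2 and the collectin genes Colec10 and Colec11 were below 1 TPM in all 9 libraries. Masp1 was above its sister protease gene Masp2 in every library.

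Both other genes of the alternative pathway were lower DEGs in pMx versus Sham. Cfd, the factor D protease that cuts Cfb and that adipocytes secrete as adipsin, was 1953.71, 1670.26 and 1283.61 TPM in Sham and 64.85, 80.12 and 145.41 TPM in pMx. Its log2 fold change was -4.13 (SE 0.73, limma adjusted p = 0.00259). The Intact libraries differed widely from each other, at 1916.43, 762.70 and 183.63 TPM. Cfp, properdin, which stabilizes the alternative convertase, changed by -1.02 (SE 0.24, limma adjusted p = 0.0101), and its fold dropped under the threshold without replicate 2 of the Sham group (-0.77), replicate 1 of the pMx group (-0.97) or replicate 3 of the pMx group (-0.92).

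The other terminal pathway genes were low, with a summed level of 4.73 to 8.58 TPM over C5, C8a, C8g and C9. C5 was at or below 0.04 TPM in all 9 libraries, and C8a and C9 stayed below 1 TPM. None of the 3 terminal genes tested beside C6 and C7 was a DEG in any comparison. C9 was 0.480 ± 0.173 TPM in Sham and 0.00, 0.12 and 0.18 TPM in the pMx libraries (log2 fold change -0.43, limma adjusted p = 0.0113), below the fold threshold at a very low level, and past it with a pseudocount of 0.1 (-1.62). C9 was called in 2 of 21 other fits, with that pseudocount and with the adjusted p alone. Its limma adjusted p reached 0.0612 under the alternatives. C6 and C7 were thus measured in libraries with hardly any C5 or C9 transcript.

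Of 6 soluble regulators tested, 4 were lower DEGs in pMx versus Sham. Serping1, the C1 inhibitor that blocks C1r and C1s, was 758.28, 610.41 and 672.78 TPM in Sham and 215.30, 254.17 and 221.03 TPM in pMx (log2 fold change -1.56, SE 0.15, limma adjusted p = 0.000125). Clu (clusterin, -1.33, limma adjusted p = 0.000378) and Vtn (vitronectin, -1.09, limma adjusted p = 0.000368), which keep the terminal complex from inserting, also fell. C4bpa, a chain of the C4b-binding protein, fell from 6.04 ± 1.58 TPM in Sham to 0.130 ± 0.0436 TPM in pMx (log2 fold change -2.62, limma adjusted p = 0.00596).

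Cfi encodes factor I, the protease that inactivates C3b and C4b. It was 0.12, 0.00 and 0.24 TPM in Intact, 0.98, 1.05 and 1.45 TPM in Sham, and 2.93, 4.79 and 1.66 TPM in pMx. The 3 groups did not overlap. Cfi was a higher DEG in pMx versus Intact (log2 fold change 1.82, SE 0.25, limma adjusted p = 0.000377), while both steps, Sham versus Intact (0.95, limma adjusted p = 0.0419) and pMx versus Sham (0.87, limma adjusted p = 0.0246), stayed below the fold threshold. In pMx versus Sham Cfi passed it without replicate 3 of the pMx group (1.15, limma adjusted p = 0.0034) and under quantile normalization (1.02, limma adjusted p = 0.00866). Other fits weakened Cfi, with a limma adjusted p up to 0.0755 with a library left out and up to 0.362 under the alternatives.

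Among membrane regulators beside Cd55, 1 of 6 was a lower DEG in pMx versus Sham. Susd4, a membrane protein with complement control repeats, was 8.35 ± 0.965 TPM in Sham and 1.51 ± 0.457 TPM in pMx (log2 fold change -1.91, limma adjusted p = 0.000175). Csmd1 (log2 fold change -1.52, limma adjusted p = 3.83e-06) and Thbd were lower DEGs in pMx versus Intact. Csmd1 was 0.817 ± 0.125 TPM in Sham and at or below 0.02 TPM in every pMx library, and its log2 fold change in pMx versus Sham, -0.84 (limma adjusted p = 0.000141), became -2.97 and -4.97 with pseudocounts of 0.1 and 0.01, past the fold threshold. Thbd, thrombomodulin, was 114 ± 16.8 TPM in Intact, 77.4 ± 3.78 TPM in Sham and 41.2 ± 7.98 TPM in pMx (log2 fold change of pMx versus Intact -1.45, limma adjusted p = 5.84e-05). Its pMx versus Sham value of -0.91 (limma adjusted p = 0.00142) passed the fold threshold without replicate 3 of the pMx group (-1.06). Cd59, which blocks the terminal pore on host cells and was chosen here after its values were seen, had a log2 fold change of -0.63 in pMx versus Sham (limma adjusted p = 0.000485), below the fold threshold.

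Of 9 complement receptors tested, 1 was a higher DEG in pMx versus Sham, the one higher DEG of the list, and 1 was a lower DEG. Itgax, the alpha chain of complement receptor 4 on myeloid cells, was 1.85, 2.66 and 1.84 TPM in Intact, 6.67, 12.20 and 3.48 TPM in Sham, and 33.05, 36.82 and 32.98 TPM in pMx. The groups did not overlap, and pMx versus Sham gave a log2 fold change of 2.20 (SE 0.33, limma adjusted p = 0.00116). Vsig4, a receptor for C3 fragments on resident macrophages, went the other way, at 188.62, 112.53 and 112.56 TPM in Intact, 72.83, 40.51 and 66.32 TPM in Sham, and 10.22, 8.69 and 4.76 TPM in pMx (a pMx versus Sham log2 fold change of -2.79, SE 0.32, limma adjusted p = 0.000304). Both were DEGs in Sham versus Intact as well, Itgax at 1.31 (limma adjusted p = 0.0369) and Vsig4 at -1.19 (limma adjusted p = 0.0461). The call of Itgax there was lost without any 1 library other than replicate 3 of the Sham group (limma adjusted p up to 0.0997), and that of Vsig4 without any 1 library other than replicate 3 of the Intact or of the pMx group (up to 0.144).

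Itgam, the alpha chain of complement receptor 3, was a higher DEG in pMx versus Intact (log2 fold change 1.15, limma adjusted p = 0.00157), a call lost on the fold threshold without the muscle-rich Intact library (0.93, limma adjusted p = 0.00129), and had a log2 fold change of 0.42 in pMx versus Sham (limma adjusted p = 0.14). The anaphylatoxin receptors were not DEGs in any comparison. C5ar1 was 92.7 ± 12.02 TPM in Sham and 94.3 ± 3.72 TPM in pMx, a log2 fold change of 0.03 (SE 0.17, limma adjusted p = 0.916). C3ar1 was 22.5 ± 2.56 TPM in Sham and 28.8 ± 1.87 TPM in pMx (0.35, SE 0.24, limma adjusted p = 0.305).

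Markers of several cell types moved with the complement genes, and their part in these results was not tested. All 12 adipocyte markers were lower DEGs in pMx versus Sham, with a summed level of 3552 to 7824 TPM in Intact, 4848 to 5373 TPM in Sham and 370.4 to 551 TPM in pMx. Lep and Pck1 were below 1 TPM in every pMx library. Cfd was also lowest in the pMx libraries, and in the Intact libraries its order was that of the adipocyte sum. Of 12 markers of sublining fibroblasts, 7 were lower DEGs and 1, Thy1, was a higher DEG in pMx versus Sham, with sums of 1871 to 2537 TPM in Intact, 3156 to 3391 TPM in Sham and 2480 to 2598 TPM in pMx, in which Dpp4 was below 1 TPM.

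Of 8 markers of the synovial lining, 4 were lower DEGs in pMx versus Sham and none was higher. Their summed levels overlapped, at 6350 to 9022 TPM in Intact, 5111 to 6593 TPM in Sham and 5283 to 7691 TPM in pMx. Fn1 and Prg4, which were not DEGs in pMx versus Sham, made up most of these sums. In pMx their means were 5165 and 1453 TPM, against a mean sum of 6740 TPM. Of 11 macrophage markers measured, Cd163 and Timd4, both of resident macrophages, were lower DEGs in pMx versus Sham, and the other 9 were not called. Among those, Cd68 was higher with a fold below the threshold (log2 fold change 0.47, limma adjusted p = 0.0428). In pMx versus Intact, Lyz2 and Cd68 were higher DEGs and Cd163 and Timd4 lower DEGs. The sums were 2045 to 3557 TPM, 5962 to 6822 TPM and 7317 to 7485 TPM in the Intact, Sham and pMx groups. Lyz2 made up most of them, at means of 2144, 5729 and 6654 TPM. Its pMx versus Sham log2 fold change was 0.22 (limma adjusted p = 0.437). Of 11 fibrocartilage markers measured, 5 were higher DEGs in pMx versus Sham (Fmod, Cilp2, Acan, Sox9 and Hapln1) and none was lower. The sums of the 11 were 494 to 1091 TPM in Intact, 796 to 884 TPM in Sham and 1683 to 1917 TPM in pMx. In Sham versus Intact, 4 sublining fibroblast markers were higher DEGs and 1 was lower, and Lyz2 of the macrophage list and Acan of the fibrocartilage list were higher. Col2a1, Chad and Cnmd of the same list, which mark cartilage cells, were below 1 TPM in all pMx libraries. Outside pMx, Col2a1 was 0.24 to 16.14 TPM in Intact and 0.14 to 2.26 TPM in Sham. Chad was 2.07 to 142.5 TPM in Intact and 1.43 to 42.97 TPM in Sham, and Cnmd did not exceed 1.05 TPM in any library.

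Of 9 hepatocyte markers in the table, 6 were tested and 3 of those (Serpina1, Tf and Alb) were lower DEGs in pMx versus Sham, with sums of 204 to 314 TPM in Intact, 190 to 250 TPM in Sham and 55.7 to 77.0 TPM in pMx. Serpina1 and Tf made up most of these sums. Apoa1, Fgb, Fgg and Ttr were below 1 TPM in all 9 libraries, and Alb did not exceed 3.98 TPM in any of them.

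**Figure D4:**
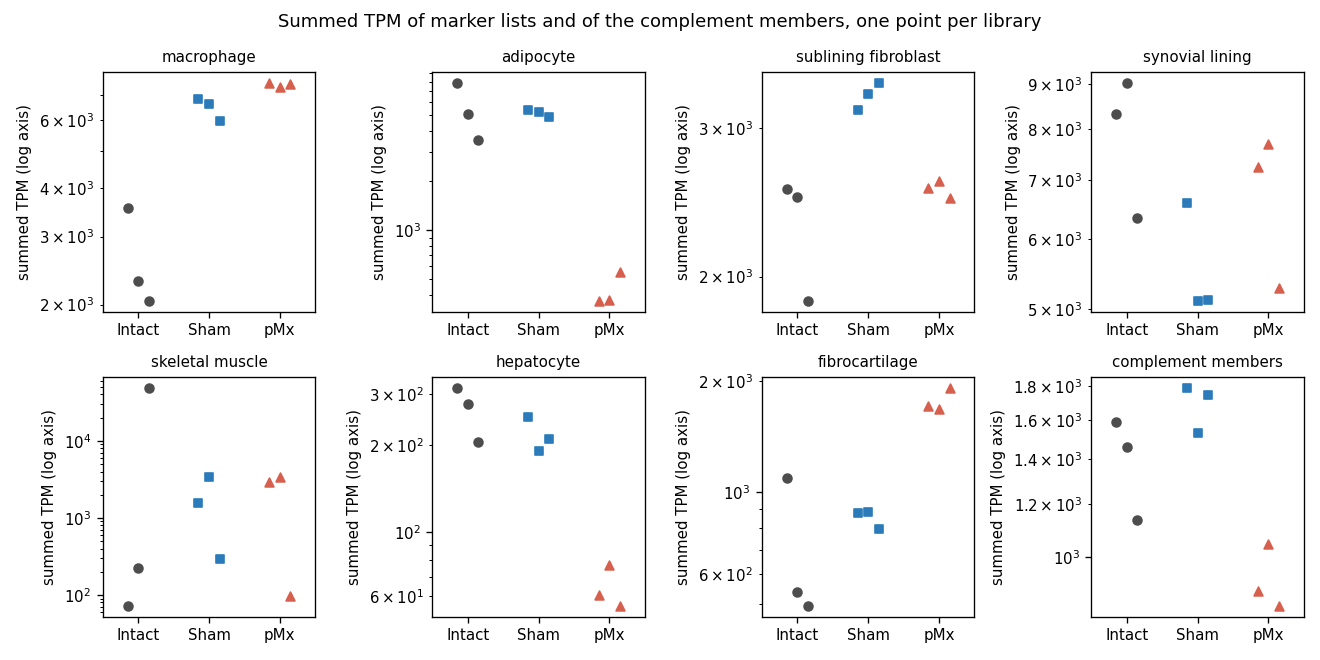
Summed TPM of 7 marker lists and of the 9 complement genes, 1 panel per list with its own log axis and 1 point per library of the Intact, Sham and pMx groups. The adipocyte sum is 370.4 to 551 TPM in pMx against 3552 TPM or more elsewhere, and the skeletal muscle sum of replicate 3 of the Intact group is 48359 TPM.

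The genes whose pattern lay nearest to each member were found over the 9 libraries among 13203 genes with a mean of at least 1 TPM, by the root mean square difference of centred log2(TPM + 1), where 0 would be an identical pattern. Nearest to C7 were Xpnpep2 (0.0921), Akap12 (0.131) and Itgbl1 (0.143), and nearest to C6 were Mdfic2 (0.168), Ecm2 (0.202) and Pacsin1 (0.206). Nearest to Cd55 were Abhd14b (0.102), Fap (0.118) and Trim21 (0.119). Nearest to C1r were Tent5c (0.0914), Bdh2 (0.0929) and Rassf2 (0.0940), and nearest to C1s were Dpp7 (0.0925), Nbl1 (0.105) and Ctsh (0.115).

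Ctsh was also among the nearest genes of C2 (0.0927), after Dppa3 (0.0685) and RGD1559575 (0.0896). The nearest genes lay farther away for C3, with Ccr2 (0.196), LOC120093104 (0.216) and RT1-Da (0.257), for Cfb, with Entpd2 (0.240), LOC103689947 (0.243) and Ptger3 (0.278), and for Masp1, with Fhod3 (0.262), Cib2 (0.265) and Serinc2 (0.292). No member was among the 3 nearest genes of another member.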

How the data were processed

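RNA from 9 rat knee samples was captured with oligo-dT, made into strand-marked libraries and sequenced on a BGI platform. The authors deposited TPM values for 17602 genes, computed from the reads at BGI and with Dr. Tom. The submitters' processing notes name HISAT2 2.0.4 and the build mRatBN7.2. The counting tool, annotation and strand setting are not given in the sources used here, so overlapping and antisense genes may share reads. Depth is unknown.

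From the deposited TPM, log2(TPM + 1) was fitted for 16512 genes, those with a TPM above 0 in 3 or more libraries, with limma 3.58.1 in R 4.3.3 (1 mean per group over all 9 libraries, eBayes with a mean-variance trend, Benjamini-Hochberg adjustment per comparison). The study gives the thresholds of a DEG and not its test. The calculation was tested on simulated data. Groups came from the sample titles. Sums, ratios and likeness were computed in Python 3.11.15 with pandas 2.3.3, and figures with Matplotlib 3.10.9.

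The members, the gene lists and the tests were chosen with earlier results of these data known. Genes named are the members, C1qa, C1qb, C1qc, C4a, C4b, Cfi, Cfd, Serping1, C5, C9, C3ar1, C5ar1, any listed complement or C1q-domain gene that was a DEG in at least 1 comparison, and the 3 nearest genes of each member. Masp2, Colec10, Colec11, C8a, C8g, Cd59 and the marker genes named lie outside this rule and were named after their values were seen, and 1 gene inside it was left out. The lists hold the other complement genes by role, the C1q domain family, and markers of macrophages, adipocytes, sublining fibroblasts, synovial lining, skeletal muscle, hepatocytes and fibrocartilage. Mbl1, Mbl2, C8b, Cpn1 and Cd59b were not analysed here. Promoters, gene order and names came from RefSeq tables of GRCr8, in which all 9 members were found by identifier. Promoter coordinates are those of GRCr8 and not of the deposited values. The alternatives changed the normalization (quantile, or rescaling by median-of-ratios), the filter (none, or a mean of 1 TPM or more), the pseudocount (0.1 or 0.01), the libraries fitted (the 6 compared), the variance model (eBayes without trend, or robust), the threshold (adjusted p alone, or below 0.01) and the pairing (a replicate block), with each library left out in turn and with a muscle score as a covariate, the last of these added after the data were seen.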

Additional observations from a re-analysis of the deposited data

How the results depend on the processing

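C6, C7 and Cfb kept their lower calls in pMx versus Sham in all 22 other fits, made of 13 alternatives and the 9 libraries left out in turn. The number of members called in pMx versus Sham, 6 as reported, was 4 to 8 under the alternatives and 3 to 6 with a library left out. In Sham versus Intact it was 1 as reported, 0 in a fit on the 6 libraries compared (C3 at a limma adjusted p of 0.0665) and at an adjusted p below 0.01, 2 with the adjusted p alone, and 0 to 1 with a library left out. In pMx versus Intact it was 4, and 4 to 5 in both sets of fits. Masp1 in pMx versus Sham lost its call in 12 of the 22 fits, among them no filter (limma adjusted p = 0.0562), median-of-ratios rescaling (0.0551), no trend (0.0527) and robust eBayes (0.0724). Quantile normalization put Cd55 just inside the fold threshold (-0.995). Of 117 values of the members under the alternatives in each comparison, 107, 114 and 114 kept their call in pMx versus Sham, Sham versus Intact and pMx versus Intact, and none changed direction.

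Over all genes, 1355 were called in pMx versus Sham, 2229 with a pseudocount of 0.1, 2303 with 0.01, 6046 with the adjusted p alone and 1222 to 1448 with a library left out. In Sham versus Intact, 323 became 612, 603 and 2097 in the same order, 190 at an adjusted p below 0.01 and 193 to 423 with a library left out, the lowest without replicate 2 of the Sham group. In pMx versus Intact, 2360 became 3662 with a pseudocount of 0.01, 8350 with the adjusted p alone and 2301 to 2422 with a library left out. The median log2 fold change of all genes lay between -0.03 and 0.03 under every scaling.

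With a library left out, values near 0 changed sign. In Sham versus Intact the log2 fold change ranged from -0.0161 to 0.45 for C6, from -0.0406 to 0.27 for C7 and from -0.54 to 0.48 for Masp1. In pMx versus Intact it ranged from -0.15 to 0.0575 for C1s, from -0.37 to 0.0764 for C2 and from -0.19 to 0.29 for C3. C5ar1 in pMx versus Sham ranged from -0.0459 to 0.13. None of these was called. The cause was not tested.

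The titles give each group replicates 1 to 3. Deviations of same-numbered libraries correlated over genes at 0.0346, 0.368 and 0.485 between pMx and Sham, at 0.00161, -0.399 and -0.493 between Sham and Intact, and at -0.378, -0.439 and -0.664 between pMx and Intact, so the numbers were not taken to pair the libraries. With the replicate number as a block, 5 members were called in pMx versus Sham (Masp1 at a limma adjusted p of 0.0958), 1 in Sham versus Intact and 4 in pMx versus Intact. Depth is unknown and limits C3, Cfi, C9 and C5, which lay near or below a few TPM.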

Other observations

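The C1q domain is shared by a family of secreted proteins that were listed here apart from the complement genes, among them the C1q/TNF-related proteins. Of 14 listed, 13 were in the table and 12 were tested. In pMx versus Sham 2 were higher DEGs and 2 lower DEGs, against 3.36% and 4.85% of all genes tested. In Sham versus Intact 2 were higher and 1 was lower (1.42% and 0.533% of all genes), and in pMx versus Intact 3 were higher and 3 lower (6.40% and 7.89%). C1qtnf3 was 5.28, 2.69 and 10.12 TPM in Intact, 118.82, 99.40 and 66.17 TPM in Sham, and 514.86, 513.24 and 436.16 TPM in pMx. The groups did not overlap, and the log2 fold change was 3.87 in Sham versus Intact (SE 0.37, limma adjusted p = 0.00191) and 2.39 in pMx versus Sham (SE 0.37, limma adjusted p = 0.00126). C1qtnf6 rose in the same order, from 50.1 ± 6.84 TPM in Intact to 140 ± 16.3 TPM in Sham and 384 ± 13.8 TPM in pMx (mean ± SD, n = 3), with log2 fold changes of 1.47 (limma adjusted p = 0.00076) and 1.45 (limma adjusted p = 4.8e-05).

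C1qtnf5 was a higher DEG in pMx versus Intact (log2 fold change 1.51, limma adjusted p = 6.19e-06), at 144 ± 17.7 TPM in Intact and 412 ± 9.61 TPM in pMx. C1qtnf7 was 48.1 ± 5.79 TPM in Intact, 47.4 ± 8.92 TPM in Sham and 11.7 ± 1.74 TPM in pMx, and fell by 1.92 on the log2 scale in pMx versus Sham (limma adjusted p = 6.96e-05). C1qtnf9 was 32.7 ± 7.41 TPM in Intact, 9.497 ± 0.575 TPM in Sham and 4.58 ± 0.0321 TPM in pMx, a lower DEG in Sham versus Intact (-1.66, limma adjusted p = 0.00146). C1ql3 fell by 1.97 on the log2 scale in pMx versus Sham (SE 0.41, limma adjusted p = 0.00578). These genes are grouped by a shared domain, and complement activity was not measured.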
